A study of Triticum aestivum with 20 samples.

Results

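Cold and control anthers of 2.5 mm were compared in the wheat line BS366, a temperature-sensitive genic male sterile line that is sterile in the cold and fertile at the control temperature. The comparison rests on the 4 arrays whose titles give the 2.5 stage, of 20 arrays in all. The cold arrays are condition A, at 10 °C with 12 h of light, and condition B, at 10 °C with 14 h of light. The control arrays are condition E, at 20 °C with 12 h of light, and condition F, at 20 °C with 14 h of light. A was set against E and B against F, so that each pair shares its photoperiod, and changes in both pairs were separated from those in 1 pair only. All plants were vernalized in the field and held under their condition for 5 d. The labels add a later move to 20 °C and do not say whether anthers were taken before it. Another sentence of the study's text gives a different cold temperature for BS366 than the labels. Each condition and stage has 1 array, and neither the number of plants behind an array nor separate cultures are stated, so a p-value measures only the spread between these arrays.

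An anther holds the developing pollen inside layers of wall. The innermost layer, the tapetum, feeds the microspores and secretes material for the pollen wall, and raftins are tapetal proteins carried to the pollen surface in wheat. The outer wall layers are green while the anther is young and carry out photosynthesis. Histones are made mostly while cells copy their DNA, and beta-amylase breaks down starch, which pollen stores late in its development. The samples are whole anthers, so fewer cells of a type and less RNA per cell cannot be told apart in any result below.

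Of 28894 probe sets, 13805 were bright enough in some group to be tested, and 2273 of these (16.5%) were called between cold and control anthers. Calls needed a 2-fold change and a limma adjusted p below 0.05, in a model of all 20 arrays. In the cold, 806 probe sets were higher (5.84%) and 1467 were lower (10.6%). Most calls were shared by both photoperiods. Among the called probe sets, 1455 changed at least 2-fold in the same direction in A against E and in B against F, of which 431 were higher (3.12% of those tested) and 1024 were lower (7.42%). Shared changes were larger in the downward direction, with a median log2 change of -2.07 for the lower and 1.69 for the higher probe sets. A change of at least 16-fold was seen in 171 of the lower and 20 of the higher ones. In 221 of the 1024 lower probe sets, both cold arrays lay under the 40th percentile of their array. Exactly repeated values across 3 or more arrays, which mark dim signals, occurred in 209 of the lower and 15 of the higher shared probe sets.

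Changes in a single pair were more numerous, both pairs together, than shared ones. At least 2-fold in the 12 h pair and under 2-fold in the 14 h pair were 1198 probe sets (8.68%), 596 higher and 602 lower. At least 2-fold in the 14 h pair only were 2500 (18.1%), 1083 higher and 1417 lower. A further 143 (1.04%) changed 2-fold in opposite directions. These are differences between single arrays and carry no test. The limma fit, which averages both pairs, called 251 of the 12 h only and 567 of the 14 h only probe sets. A test of the difference between the pairs called 121 probe sets (0.876%), so for most changes in 1 pair only a difference between the photoperiods was not shown. Without control array F, the count of calls between cold and control was 1492, the lowest of the 4 counts with an array left out.

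**Figure D1:**
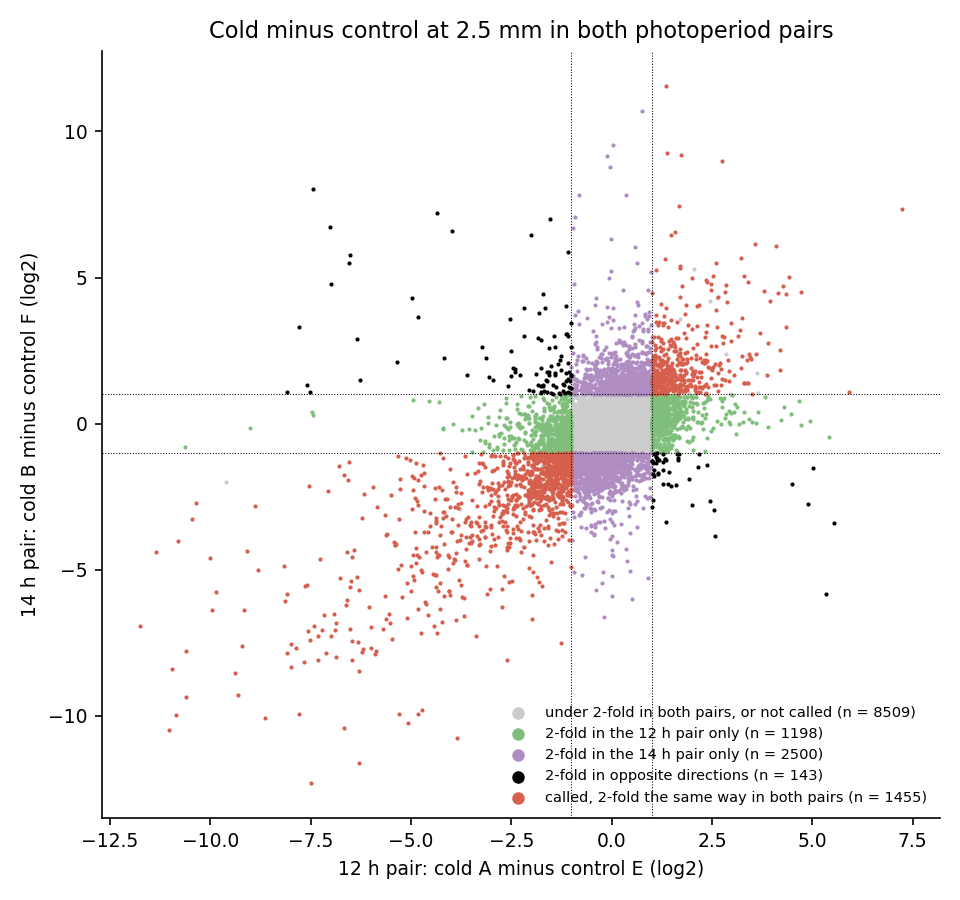
Each point is 1 of the 13805 probe sets tested, with the 12 h pair (cold A minus control E, log2) on the x axis and the 14 h pair (cold B minus control F, log2) on the y axis, and dotted lines at 2-fold. The 1455 shared calls lie in 2 corners, with many more and larger changes in the lower left corner, while 143 probe sets lie in the other corners.

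Within each temperature the arrays of 12 h and 14 h correlated at 0.900 (A with B) and 0.906 (E with F) across the probe sets tested, against 0.792 for A with E and 0.745 for B with F. Probe sets are not independent replicates, so these values only describe the arrays. The array closest to A was cold 2.0 mm with 12 h of light (0.987), and the closest to B was cold 3.0 mm with 14 h of light (0.971). Control F had no array closer than control 2.2 mm with 14 h of light (0.920). The reporter control probe set, which was left out of all tests, read 12.99 in A and 14.58 in B, against 13.29 in E and 13.70 in F, and the value in B was the highest of the 20 arrays. Array B also had the lowest median of the 4 arrays over all probe sets, 6.19, against 6.33 in A, 6.42 in E and 6.38 in F. The part of these offsets in the results was not tested, beyond a quantile normalization of all arrays, under which 2265 probe sets were called, 987 higher and 1278 lower, and the shared changes were 545 higher and 908 lower.

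A gene symbol was found for 611 of the probe sets tested, and 107 of these (17.5%) were called. In 57 the change was shared, 19 higher and 38 lower. Most symbols are numbers of gene records without a name in the tables used, and only 89 of the probe sets tested carry a gene name. No role is given below for a record without a name.

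The largest shared decrease with a symbol was that of LOC543390 (Ta.92.1.S1_s_at). Its log2 level was 4.95 in A and 5.64 in B, against 12.35 in E and 12.55 in F. Both cold arrays were far below both controls, and the fall was 143-fold (log2 -7.16 ± 0.55 SE, n = 2 arrays per temperature, limma adjusted p = 4.71e-06). Its cold minus control difference was -4.42 at 2.2 mm (adjusted p = 0.000339) and -1.21 at 3.0 mm (adjusted p = 0.098). LOC100037560 was also low in both cold arrays, at 3.15 in A and 4.62 in B, against 8.54 in E and 8.77 in F (log2 -4.77 ± 0.62, adjusted p = 0.000203). LOC542972 had 6.25 in A and 7.81 in B, against 10.35 in E and 10.40 in F (-3.34 ± 0.46, adjusted p = 0.000329). For these 3 genes E and F differed little, while A was lower than B. LOC778400, LOC543329 and LOC732707 changed by -3.40, -3.38 and -2.64, and LOC543329 was not called once values under the 40th percentile were raised to it.

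A group of probe sets whose identifiers share the stem Ta.1282 fell together. It includes LTP3, a lipid transfer protein, a class of small secreted proteins that bind lipids. LTP3 (Ta.1282.1.S1_x_at) was dim, and was bright enough to be tested only in the control arrays of 3.0 mm. At 2.5 mm it had 2.42 in A and 2.51 in B, against 3.92 in E and 7.24 in F. Only F was clearly above the bottom of the scale, and the log2 change of -3.11 ± 0.70 (adjusted p = 0.00606) became -1.60 without F and was not called with values raised to the 40th percentile. LOC100037539 was brighter in controls. Its probe set Ta.1282.2.S1_at had 3.73 in A and 3.60 in B, against 8.35 in E and 9.76 in F (-5.39 ± 0.46, adjusted p = 9.83e-06), and Ta.1282.2.S1_x_at changed by -5.31 ± 0.49. LOC778422 (Ta.1282.3.S1_x_at) had 3.79 in A and 2.81 in B, against 6.52 in E and 9.08 in F (-4.50 ± 0.61, adjusted p = 0.00027). Probe sets of related sequences can read each other's transcripts, so these 4 may not be independent.

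Of the probe sets on the lists of starch and sucrose metabolism and of photosynthesis, 2 of 3 and 5 of 10 were called lower in cold anthers. Of all probe sets tested, 10.6% were called lower. 1 of the 2 starch and sucrose calls, 1-FEH, entered its list after values were seen, so this count describes the list only. Beta-amylase amy1 had a log2 level of 9.05 in A and 9.95 in B, against 12.20 in E and 13.83 in F. Both cold arrays were below both controls and F was the highest (-3.52 ± 0.67, adjusted p = 0.00233, and -2.75 without F). PRK, the phosphoribulokinase of the Calvin cycle, had 8.28 in A and 9.60 in B, against 11.21 in E and 12.47 in F (-2.90 ± 0.41, adjusted p = 0.000361). FBP, the fructose-bisphosphatase of the same list, had 6.30 in A and 7.41 in B, against 8.23 in E and 9.53 in F. Its change of -2.02 ± 0.45 (adjusted p = 0.00572) was no longer called without F (-1.44). In both genes the 14 h array was higher than the 12 h array at either temperature, and the cold and control arrays did not overlap. Fructan exohydrolase 1-FEH had 9.21 in A and 9.90 in B, against 10.42 in E and 10.83 in F (-1.07 ± 0.26, adjusted p = 0.00867). It was 2-fold in the 12 h pair only and was not called without A or without F, or after quantile normalization. AGP-S, a subunit of the enzyme that makes the precursor of starch, was not called (0.12 ± 0.19).

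Of 10 photosynthesis probe sets tested, 5 were called lower and none higher, against 10.6% and 5.84% of all those tested. All 10 were lower in both pairs, as were 34.6% of all probe sets tested. Their median log2 change was -1.31, against -0.05 over all probe sets tested. The list was chosen with results of these arrays known, so the count describes it only. The probe sets of rbcl, the large subunit of Rubisco, did not move alike. The 2 brightest were at 14.73 in A, 14.73 in B, 14.96 in E and 15.03 in F (Ta.24976.1.S1_x_at) and at 14.25, 14.47, 14.47 and 14.57 in the same order (TaAffx.128414.1.A1_x_at), and neither was called. The 2 dimmer ones fell by 1.37 (TaAffx.128414.181.S1_at) and 1.58 (TaAffx.128896.17.S1_s_at) on the log2 scale. The first of these was not called without A, B or F. Without F, 2 of the 5 photosynthesis calls were left, and without A 3. The linear levels of the 10 probe sets summed to 53751 in A and 65664 in B, against 73876 in E and 83183 in F, so both cold sums lay below both control sums. Most of each sum came from the 2 brightest rbcl probe sets, which were not called, so the sums say little on the other members.

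Of 7 redox and detoxification probe sets tested, 5 were called lower and none higher, against 10.6% and 5.84% of all those tested. Trx-M, an m-type thioredoxin of the plastid, had 8.56 in A and 9.18 in B, against 10.44 in E and 11.10 in F, and changed by -1.90 ± 0.25 (adjusted p = 0.000225), with -1.76 to -2.04 when 1 array was left out. Both cold arrays lay below both controls and the pairs changed by nearly the same amount. All 3 probe sets of the peroxiredoxin gene Prx1 were called lower, with changes of -1.81, -1.64 and -1.51. For Ta.6572.1.S1_at the levels were 8.93 in A and 10.24 in B, against 11.03 in E and 11.43 in F, with A the lowest array. The 2 members not called were the other GSTZ1 probe set (Ta.237.1.S1_a_at, adjusted p = 0.067) and the catalase CAT1, which was higher in the cold in the 14 h pair and is given below.

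Some called genes with a name lie outside these lists, and are named here after their values were seen. Pgk-1, a phosphoglycerate kinase, had 9.89 in A and 11.05 in B, against 12.34 in E and 12.25 in F (-1.83 ± 0.36, adjusted p = 0.0031). The lactoylglutathione lyase gene lgul, of methylglyoxal detoxification, had 6.62 in A and 5.83 in B, against 8.41 in E and 8.75 in F (-2.36 ± 0.47, adjusted p = 0.0033). PEAMT1, a methyltransferase of choline synthesis, had 10.30 in A and 11.56 in B, against 12.06 in E and 12.57 in F (-1.38 ± 0.31, adjusted p = 0.0058). COMT1, a methyltransferase of lignin synthesis, had 8.10 in A and 8.46 in B, against 9.01 in E and 10.11 in F (-1.28 ± 0.28, adjusted p = 0.0055), and passed 2-fold in the 14 h pair only. In these 4 genes the cold and control arrays did not overlap. The same held in 1020 of the 1024 shared lower probe sets, where the rule of that class nearly fixes it. COMT1 is not in that class. The share over all probe sets tested was not counted, so the lack of overlap only describes these genes.

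Histone probe sets made up most of the named genes that rose. Of 17 H2A and H2B probe sets tested, from 5 genes, 12 were called higher and none lower, against 5.84% and 10.6% of all those tested. All 17 were higher in the cold in both pairs, as were 30.7% of all probe sets tested. Their median log2 change was 1.10, with a median of 1.11 in the 12 h pair and 1.11 in the 14 h pair. H2A-9 (Ta.27657.12.S1_at) had 11.79 in A and 11.30 in B, against 10.09 in E and 8.89 in F (2.06 ± 0.34, adjusted p = 0.00109). H2A-3 had 11.80 in A and 11.53 in B, against 10.49 in E and 9.94 in F (1.45 ± 0.21, adjusted p = 0.000476). In both genes the cold arrays lay above both controls, and F was the lowest. H2A-2 had 11.55 in A and 10.02 in B, against 8.56 in E and 9.04 in F, and reached 2-fold in the 12 h pair only (1.99 ± 0.48, adjusted p = 0.00903). Most histone changes were near the 2-fold limit: 2 of the 12 were still called without A (median 0.88) and 3 without F (median 0.89). Several of these probe sets belong to 1 gene or to near-identical family members, so they are not 17 separate observations.

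Hmgb3, a high mobility group protein that binds DNA in chromatin, rose with the histones. Its probe set Ta.30768.3.S1_x_at had 12.43 in A and 12.10 in B, against 11.28 in E and 10.47 in F (1.38 ± 0.18, adjusted p = 0.000215, and at least 1.09 with any array left out). The second probe set, Ta.30768.1.S1_x_at, had 13.79 in A and 14.07 in B, against 12.99 in E and 12.22 in F, and changed by 1.33 ± 0.24. The tubulins, subunits of microtubules, gave no call among 9 probe sets, with changes of -0.30 to 0.72. Of all probe sets tested, 16.5% were called. With so few tubulin probe sets, 4 of them of Tubb5, the lack of a call does not set the list apart. Tubb1 (0.72 ± 0.21, limma adjusted p = 0.024) and tubb3 (0.58 ± 0.18, limma adjusted p = 0.034) passed in p and not in size. The levels of the histone list summed on the linear scale were 76608 in A and 48628 in B, against 36141 in E and 21426 in F. The same sums of the 4 raftin probe sets were 6700 in A and 28028 in B, against 34890 in E and 33918 in F. The part of tapetal or of dividing cells in these results was not tested.

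The largest shared increase with a symbol was that of LOC542836, with 12.62 in A and 11.23 in B, against 8.52 in E and 5.15 in F. Both cold arrays were above both controls and F was far below E. The rise was 34.1-fold (5.09 ± 0.66, adjusted p = 0.000207), and the log2 change was 3.62 without F and 6.56 without E. LOC542796 had 10.10 in A and 8.66 in B, against 7.42 in E and 6.67 in F (2.33 ± 0.30, adjusted p = 0.000189). LOC543228 had 9.13 in A and 9.30 in B, against 7.64 in E and 7.22 in F (1.79 ± 0.22, adjusted p = 0.00017). The remaining 5 records of this group without a name, LOC543455, LOC543426, LOC543360, LOC100037599 and LOC542773, changed by 1.30 to 1.83, and LOC100037599 (Ta.16082.1.A1_at) was not called without A, E or F.

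**Figure D2:**
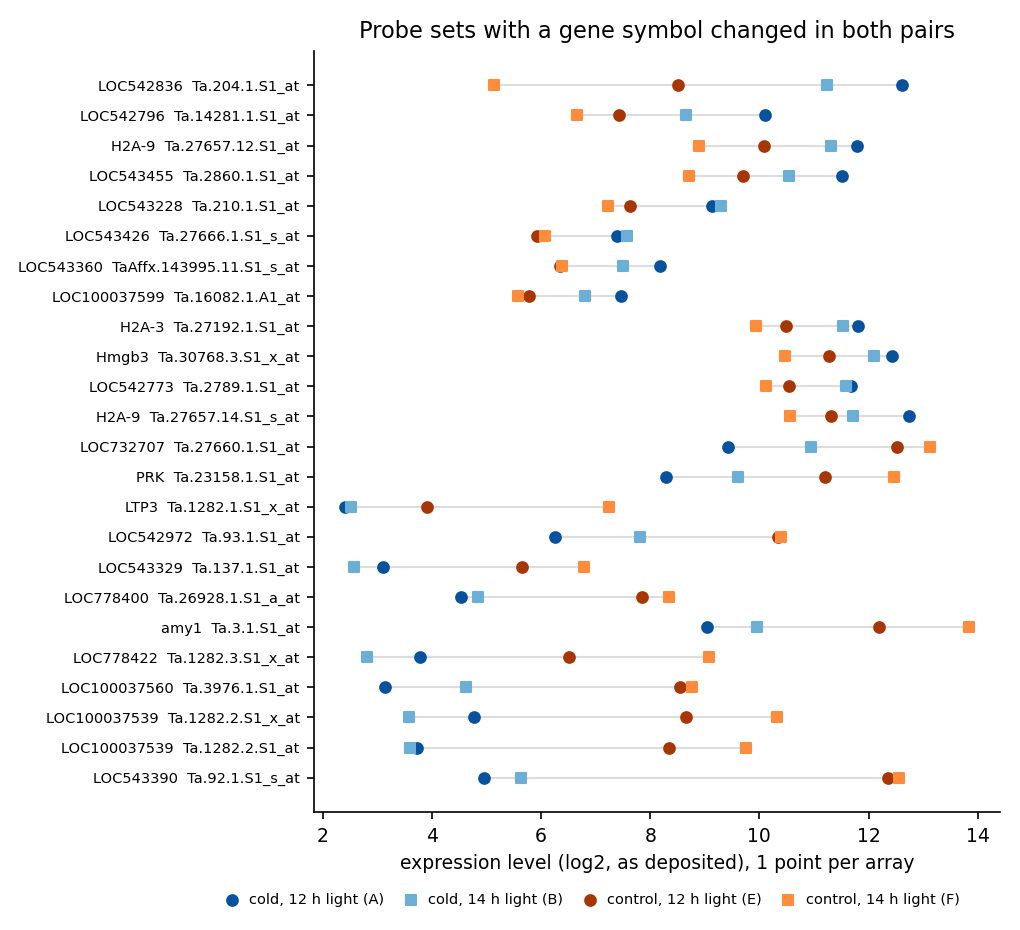
Log2 level in each of the 4 arrays (x axis) of the 12 probe sets that rose most and the 12 that fell most among shared changes with a gene symbol, ordered by change. The cold arrays (blue) lie to the right of both controls (orange) in the upper 12 rows and to the left in the lower 12, and F is the extreme control in most of them.

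Probe sets without a symbol held the largest changes. TaAffx.86985.1.S1_at was at 2.31 in A and 2.33 in B, near the lowest value of the arrays, against 13.33 in E and 12.82 in F (-10.76 ± 1.19, adjusted p = 7.52e-05). At 2.2 mm it was also low in both cold arrays and high in both controls, while at 3.0 mm the cold arrays had 8.97 and 9.48 and the controls 2.52 and 2.30. Ta.3542.1.S1_at had 2.75 in A and 3.93 in B, against 13.59 in E and 13.89 in F (-10.40 ± 1.22). TaAffx.60258.2.S1_s_at was high in both cold arrays, at 10.96 in A and 11.10 in B, against 3.73 in E and 3.75 in F (7.29 ± 0.71, adjusted p = 2.82e-05). TaAffx.114178.1.S1_s_at had 13.62 in A and 14.15 in B, against 12.28 in E and 2.58 in F. Its mean change of 6.46 ± 1.88 (adjusted p = 0.0226) came mostly from F, was 1.56 without F and was not called without B.

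Among changes in the 12 h pair only, tapetal and photosystem genes were low in A, while B lay nearer the controls than A. All 4 raftin probe sets showed this, and B was above F in 1 of the 4. By the rule of this class B differs less than 2-fold from F. Raftin1b (Ta.4091.1.S1_x_at) had 9.36 in A and 11.60 in B, against 12.41 in E and 12.41 in F. Raftin1a (Ta.4195.1.S1_at) had 11.12 in A and 13.43 in B, against 13.64 in E and 13.39 in F. The other probe set of raftin1b had 11.00 in A and 13.10 in B, against 13.33 in E and 13.18 in F. A was below the other 3 arrays in each, and the test of the difference between the pairs did not pass (adjusted p = 0.194 to 0.379 over the 4 probe sets). Over both pairs, raftin1a (Ta.4176.1.S1_x_at) alone was called, with 10.79 in A and 12.31 in B, against 12.62 in E and 13.05 in F (-1.29 ± 0.42, adjusted p = 0.0354), and not without A, E or F.

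OEE2, a protein of the oxygen-evolving complex of photosystem II, had the same order. Its probe set TaAffx.120874.1.S1_x_at had 7.69 in A and 9.76 in B, against 10.02 in E and 10.24 in F, and Ta.85.1.S1_at had 10.46 in A and 11.51 in B, against 12.15 in E and 12.33 in F. The second was called (-1.25 ± 0.32, adjusted p = 0.0118), but not without A or F. OEE1 had 10.40 in A and 11.52 in B, against 11.60 in E and 11.68 in F. PetC, of the cytochrome b6f complex, had 11.70 in A and 12.88 in B, against 12.77 in E and 12.92 in F. Neither was called. The Prx1 probe set Ta.6572.1.S1_a_at, with 7.26 in A and 9.18 in B, against 9.97 in E and 10.10 in F, also reached 2-fold in the 12 h pair only (-1.81 ± 0.45, adjusted p = 0.0099, not called without A or E). The ribosomal protein gene CL9 had 7.88 in A and 8.92 in B, against 9.62 in E and 9.36 in F (-1.09 ± 0.35, adjusted p = 0.0337). This call was lost without A, E or F, with the photoperiod fitted for each stage, after quantile normalization and when dim probe sets were kept in.

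The largest 12 h only decrease with a symbol was LOC543359, with 4.29 in A and 7.16 in B, against 8.50 in E and 7.35 in F, where A alone was low and no call was made (adjusted p = 0.062). LOC606323 differed in its control, with 10.49 in A and 10.64 in B, against 8.16 in E and 11.57 in F. Over the 1198 probe sets of this class, the cold arrays A and B differed more from each other than the control arrays E and F in 902 (75.3%). In the other classes this share was 46.6% to 60.8%, with 60.6% among probe sets under 2-fold in both pairs. In 410 of the 902 A was the low array and in 492 the high one.

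In the class of the 14 h pair only, B and F lay apart by the rule of the class. LOC542838 had 7.51 in A and 5.71 in B, against 8.44 in E and 10.78 in F, the largest decrease of this class with a symbol (it fell by 3.00 ± 0.75 on the log2 scale, adjusted p = 0.0102, and was not called without B or F). LOC543111 had 9.05 in A and 7.24 in B, against 9.38 in E and 9.59 in F, with B alone low (-1.34 ± 0.44, adjusted p = 0.0378, not called without B, E or F). LOC606369 (Ta.24806.2.S1_a_at) had 9.18 in A and 11.17 in B, against 9.21 in E and 7.91 in F, and was not called. LOC542773 (Ta.2789.1.S1_a_at) had 10.71 in A and 11.88 in B, against 9.75 in E and 9.08 in F (1.88 ± 0.49, adjusted p = 0.0131, not called without B or F). A second probe set of this gene, Ta.2789.1.S1_at, was among the shared increases, with 11.67 in A and 11.58 in B, against 10.54 in E and 10.12 in F. GSTZ1, a glutathione transferase, had 5.90 in A and 5.86 in B, against 6.66 in E and 7.32 in F (TaAffx.56524.1.S1_at, -1.11 ± 0.28, adjusted p = 0.0113). This probe set was bright enough to be tested only in the control arrays of 3.0 mm. It was not called without B or F or after quantile normalization.

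Of the 20 probe sets with a symbol that changed most in 1 pair only, 10 were called over both pairs, and 4 of these stayed called when photoperiod was fitted for each stage. In the 14 h only class B was the array farthest from the median of the others in 1453 of 2500 probe sets, lower in 909, and F was so in 1047. The rule of the class allows only B or F to be farthest. The cold arrays differed more from each other than the control arrays in 58.1% of this class. That is not above the 60.6% among probe sets under 2-fold in both pairs.

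**Figure D3:**
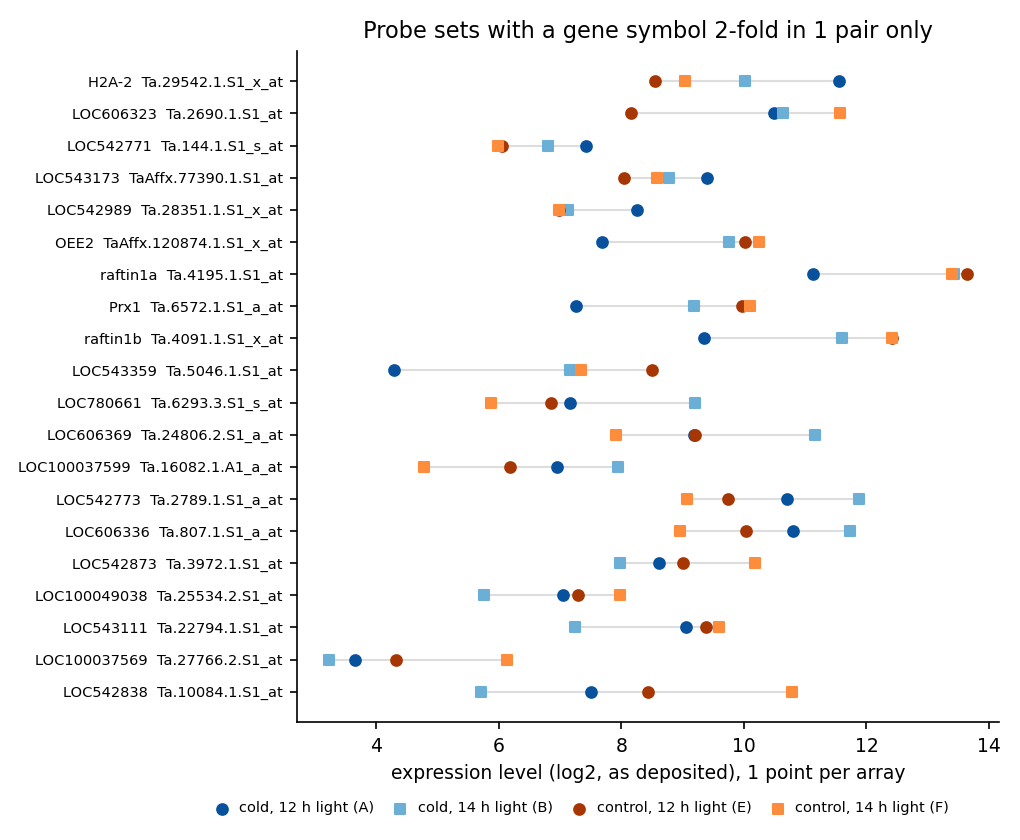
Log2 level in each of the 4 arrays (x axis) of the 20 probe sets with a gene symbol that changed most in 1 pair only, the upper 10 rows in the 12 h pair and the lower 10 in the 14 h pair. A stands apart in most of the upper rows, and B and F lie at opposite ends in the lower rows, which the choice of these rows favours.

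The 143 probe sets that changed in opposite directions include 5 with a symbol. CAT1, which breaks down hydrogen peroxide, had 6.58 in A and 8.95 in B, against 7.71 in E and 7.21 in F, so cold was lower with 12 h and higher with 14 h of light. The difference between the pairs was -2.87 ± 0.96 (log2) and did not pass the test (adjusted p = 0.197). LOC542820 had 9.84 in A and 7.67 in B, against 7.68 in E and 9.14 in F, and here the difference of 3.63 ± 0.71 passed (adjusted p = 0.0466). LOC543247 had 6.65 in A and 5.61 in B, against 5.76 in E and 7.21 in F (2.49 ± 0.40, adjusted p = 0.019). With LOC778422 above (3.54 ± 0.65, adjusted p = 0.0358), these are all the probe sets with a symbol among the 121 called for the difference between the pairs. Of the 121, 30 changed in opposite directions, 69 in the 14 h pair only, 3 in the 12 h pair only and 19 in both pairs the same way. F was the array farthest from the median of the other arrays in 95 of the 121, lower in 62 and higher in 33. In the whole 14 h only class F was so in 1047 of 2500. The share over all probe sets tested was not counted, so the 95 only describe this set. At an unadjusted p under 0.05 there were 2548 probe sets. Without the control arrays of 3.0 mm, which enter the error, 57 were called.

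Of 26 probe sets in the study's table of auxin genes, 16 were tested, 4 were called lower and none higher, against 10.6% and 5.84% of all those tested. The study chose them on these arrays, so their direction is not independent evidence. Both called probe sets of the auxin-induced protein 5NG4 and that of auxin response factor 5 were bright enough to be tested only in the control arrays of 3.0 mm. Both 5NG4 probe sets were near the lowest value in the cold. Ta.5650.1.S1_a_at had 2.54 in A and 3.82 in B, against 5.14 in E and 8.14 in F (-3.46 ± 0.82, adjusted p = 0.00822), and Ta.5650.2.S1_x_at had 2.30 in A and 2.88 in B, against 3.32 in E and 7.78 in F (-2.96 ± 0.98, adjusted p = 0.0392). F was far above the other arrays in both, and the first was not called with values raised to the 40th percentile. The second was not called with no photoperiod term or when dim probe sets were kept in. Auxin response factor 5, a transcription factor of the auxin response, had 4.18 in A and 5.45 in B, against 5.28 in E and 7.20 in F (Ta.6746.1.S1_at, -1.42 ± 0.41, adjusted p = 0.0211). The cold and control arrays overlapped, since B was above E, and the call was lost with values raised to the 40th percentile or with no photoperiod term. An auxin-repressed protein had 10.46 in A and 10.96 in B, against 11.57 in E and 12.28 in F (Ta.28394.1.S1_s_at, -1.21 ± 0.33, adjusted p = 0.0157). None of the 4 was called without F, with changes of -2.39 to -0.80.

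The other auxin probe sets were not called. IAA15, an Aux/IAA repressor, had 8.71 in A and 8.06 in B, against 7.59 in E and 7.76 in F, which passed in p and not in size (0.71 ± 0.24, adjusted p = 0.045). Auxin response factor 16 had 7.79 in A and 7.20 in B, against 7.74 in E and 9.58 in F, with F alone high. Auxin response factor 2 (LOC543452) had 7.26 in A and 5.07 in B, against 6.12 in E and 6.24 in F, with A high and B low. The descriptions name the proteins these probe sets matched best, some of them from other plants.

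Of 6 translation probe sets tested, 1 (CL9) was called lower and none higher. This is near the share over all probe sets tested, of which 16.5% were called, so the count does not set the list apart. The lists of cold-responsive genes, heat shock proteins, floral MADS-box and other transcription factors, cell cycle, meiosis, membrane transport and grain proteins matched no probe set with a name, so no statement can be made on them or on contamination from grain tissue. The tapetal raftins were bright in all 4 arrays, at 9.36 or above.

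Over the 5 stages cold and control medians of the shared sets lay farthest apart from 2.2 mm on. The 1024 shared lower probe sets had a median log2 level of 6.33, 6.72, 6.69, 6.59 and 7.38 in A from 1.5 to 3.0 mm and of 6.56, 6.94, 6.91, 6.68 and 7.14 in B, against 6.99, 6.89, 8.39, 8.96 and 8.44 in E and 6.83, 7.45, 8.76, 9.32 and 8.47 in F. The controls climbed by 2.2 mm, and the cold anthers stayed near their level of 2.0 mm up to 2.5 mm. The 431 shared higher probe sets had medians of 9.17 in A and 8.93 in B at 2.5 mm, against 7.44 in E and 6.83 in F, while at 2.0 mm they had 9.07 and 8.93 in the cold, against 9.04 and 8.72 in the controls. At 2.5 mm the sets were chosen on these values. The other stages come from other arrays, but those arrays entered the filter and the error of the fit that chose the sets.

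At 2.2 mm, 649 (63.4%) of the shared lower and 206 (47.8%) of the shared higher probe sets were called in the same direction, and 62.9% of all probe sets called lower and 32.9% of those called higher at 2.2 mm were among them. At 3.0 mm, 489 (47.8%) of the lower and 330 (76.6%) of the higher ones were called the same way, and these are 26.7% and 17.2% of the calls lower and higher at 3.0 mm. Over all 13805 probe sets tested, 1031 were called lower and 626 higher at 2.2 mm, and 1830 lower and 1921 higher at 3.0 mm. Of the shared lower probe sets, 129 (12.6%) were called higher in the cold at 3.0 mm, as in TaAffx.86985.1.S1_at. This share was not above that over all probe sets tested. Among the shared higher ones, 6 were called lower at 3.0 mm. At 1.5 mm, 34 probe sets were called lower in the cold, and 26 of them (76.5%) were among the shared lower ones, while 5 were called higher and 2 of these were among the shared higher ones. At 2.0 mm limma called 0 probe sets, with 581 at an unadjusted p under 0.05.

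The cold effect at 2.5 mm was also tested against that at 2.2 mm, and 0 of 13805 probe sets (0%) passed in limma, with 1637 at an unadjusted p under 0.05. Leaving out control E gave 203 calls, and leaving out cold A gave 9. The Prx1 and Trx-M probe sets, for example, had changes of -1.68 (Ta.6572.1.S1_at) and -1.42 at 2.2 mm, close to those at 2.5 mm, and of 0.71 and -0.24 at 3.0 mm, where neither was called. For H2A-9 (Ta.27657.12.S1_at) the change was 1.08, 2.06 and 3.32 at 2.2, 2.5 and 3.0 mm.

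**Figure D4:**
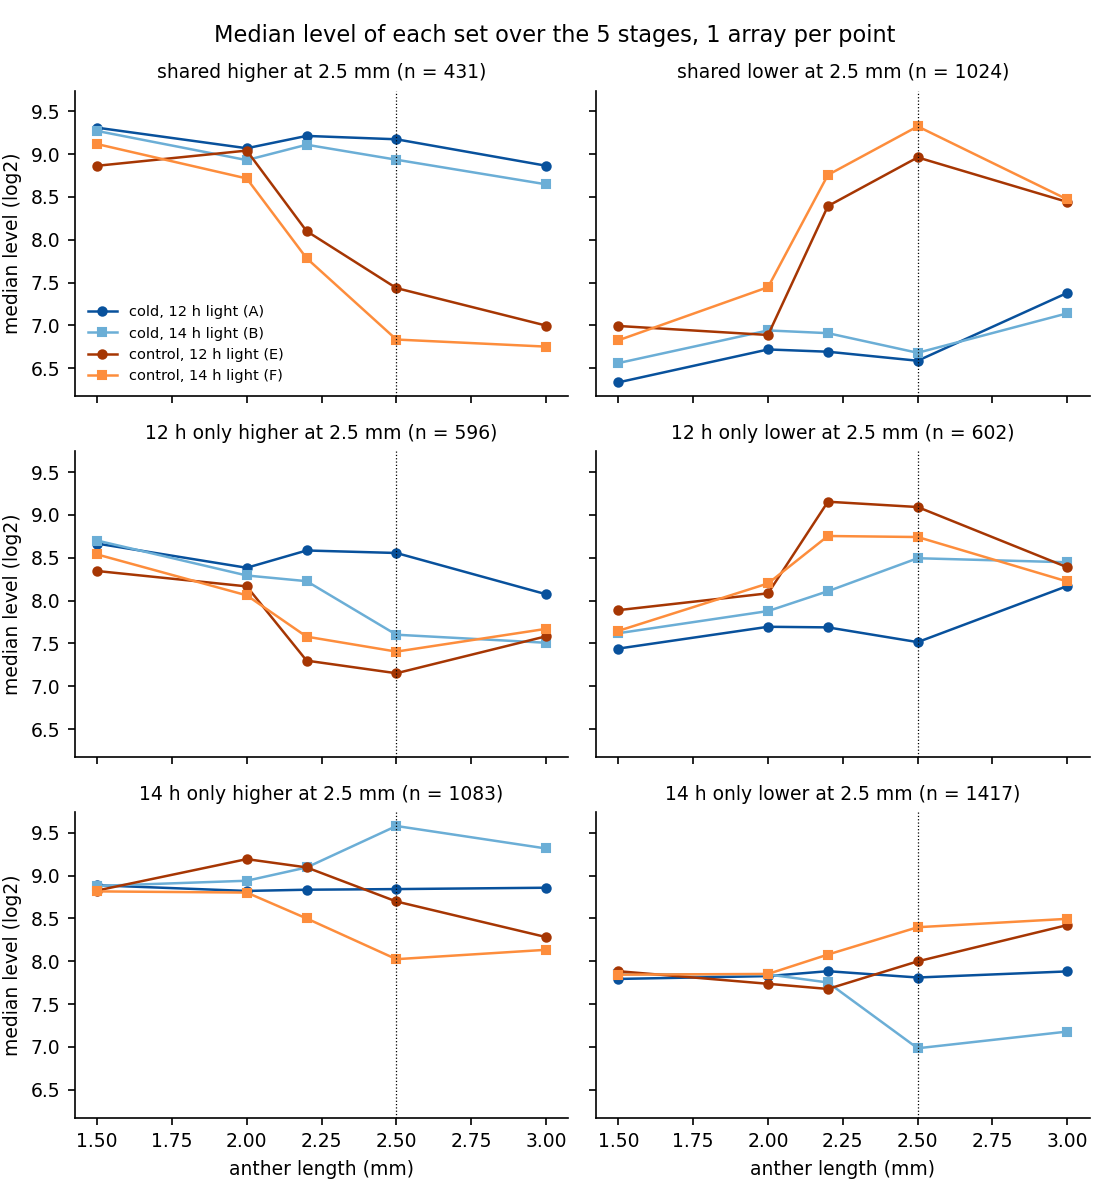
Median log2 level (y axis) over the probe sets of each class against anther length (x axis, mm), 1 line per condition and 1 array per point. Cold and control lie farthest apart from 2.2 mm on in the shared sets. In the 14 h only sets B and F move apart from A and E at 2.5 mm, the stage on which these sets were chosen.

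**Figure D5:**
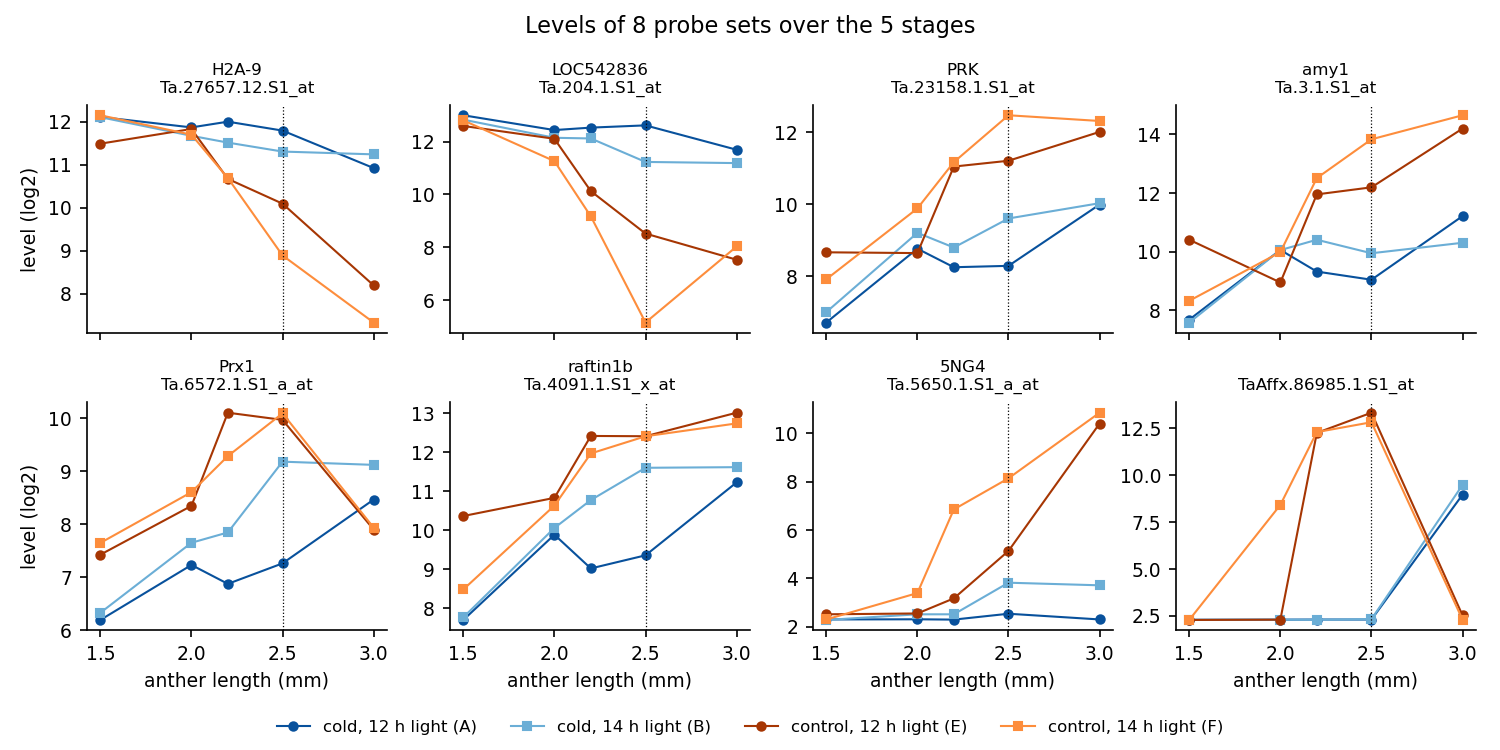
Log2 level (y axis) of 8 probe sets against anther length (x axis, mm), 1 line per condition and 1 array per point. H2A-9 and LOC542836 stay high in the cold while the controls lie lower after 2.0 mm, PRK and amy1 run the other way, and TaAffx.86985.1.S1_at is high in the controls at 2.2 and 2.5 mm and in the cold at 3.0 mm.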

How the data were processed

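Total RNA of BS366 anthers was labelled with biotin and hybridized to Affymetrix Wheat Genome arrays. The log2 expression values were deposited by the authors in a table with a column for each array, made with MAS5 per the labels. Its version and the scaling between arrays are not given here. All arrays share a lowest value of 2.28, and 12103 of 28894 probe sets have exactly the same value in 3 or more arrays (11.3% of those tested), which a summary made on each array alone would not be likely to give. How the values were made beyond the named method is therefore unsettled, and the spread of dim probe sets may be understated. The reporter control (1 entry) enters no test. Testing covered 13805 probe sets, those for which, for some temperature and stage, both arrays read above their 60th percentile.

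limma 3.58.1 in R 4.3.3 was fitted to all 20 arrays, with a mean for each temperature and stage, a photoperiod term common to the stages, 9 residual degrees of freedom, a variance trend and Benjamini-Hochberg adjustment. SE values are those of this fit, and 2 arrays per temperature limit the precision. The difference between the pairs, (A minus E) minus (B minus F), was tested with photoperiod terms of its own at 2.5 mm and 7 residual degrees of freedom, the error coming from the 8 other pairs of arrays. The photoperiod is the replicate number, and a block for each stage was an alternative. The script was tested on simulated data.

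Gene symbols came from the platform annotation (845 probe sets, 844 matched by gene ID to the RefSeq gene table of IWGSC CS RefSeq v2.1, 115 with a name) and auxin descriptions from the study's table, whose fold changes were not used. Probe sets were named by rule: the 12 highest and 12 lowest shared changes with a symbol, the 5 highest and 5 lowest for each pair alone, called members of the gene lists, the auxin probe sets, and calls of the pair difference. At most 4 without a symbol were added. Other list members, the probe sets with opposite changes and further called genes with a name were named after their values were seen. The members and lists were chosen with earlier results of these data known, and list patterns that matched a wrong gene, or missed 1-FEH, were corrected after values were seen.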

Additional observations from a re-analysis of the deposited data

Results flagged for a closer look

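The cold effect differed between the 12 h and 14 h pairs in 121 probe sets by the limma test of the difference itself. Among those named, the difference (12 h minus 14 h, log2) was 3.54 for LOC778422, 2.49 for LOC543247, 3.63 for LOC542820 and -10.2 for TaAffx.114178.1.S1_s_at, whose control array F read 2.58 and the other 3 arrays at least 12.28.

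The reporter control probe set, which enters no comparison, read 14.6 in the cold array with 14 h of light at 2.5 mm, above 13.29 and 13.70 in the control arrays, and the next highest of the 20 arrays was cold 3.0 mm with 14 h of light (14.56).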

How the results depend on the processing

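Calls between cold and control numbered 2273, and 1492 to 2735 with 1 of the 4 arrays left out (446 to 1029 higher and 1046 to 1793 lower). With only the 4 arrays of 2.5 mm and 1 residual degree of freedom they were 410, 64 higher and 346 lower. A photoperiod term for each stage, which pairs the arrays (replicate block), gave 2104, and no photoperiod term 2152. The 1455 shared changes numbered 410 in the fit of 4 arrays and 1064 to 1955 in the other fits that kept all 4 arrays, and they have no count with an array left out. Without a filter on dim probe sets, 2053 changed in the 12 h pair only and 4973 in the 14 h pair only, and with a log2 difference under 0.5 required in the other pair 649 and 1486. The difference between the pairs gave 257 calls without the filter and 57 without the control arrays of 3.0 mm. Against 2.2 mm, 11 probe sets were called without the filter and 5 with values raised to the 40th percentile. With 1 array left out, 0 to 203 were called against 2.2 mm. A fit without probe sets of exactly repeated values in 3 or more arrays was added after the data were seen. It gave 1994 calls between cold and control. Of 61 named probe sets called, 26 stayed called in every setting but the fit of 4 arrays, and none reversed. The cause of these differences was not tested. Dim probe sets limit the values of 5NG4, LTP3, LOC543329 and auxin response factor 5.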
